A study of Oryza sativa with 36 samples.

Results

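The genes described here are the 200 whose RNA level varied least over all 18 leaf RNA-seq libraries of a rice transformation study. They were chosen by that spread alone. Counts were turned into CPM, which sets every library to a common total, and scaled between libraries with TMM factors (trimmed mean of M values), and 19113 of the 55986 listed genes had at least 10 counts in every library. Of these, 9304 had a mean of at least 20 CPM, and the 200 with the lowest standard deviation (SD) of log2 CPM were taken from them. These 9304 genes are called the eligible genes below.

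The plants were rice (Oryza sativa, japonica, TNG67), grown in a greenhouse under natural light to tillering, when the plant puts out side shoots, and leaves were sampled. One group, Seedling, came straight from seed. The other 8 groups are read from the growth protocol as plants regenerated from calli, the unorganised tissue from which transformed rice is raised. They are PB, AMT+Hb, AMT+Ab, AgBi, AgTi, Ag, Callus+AM and Callus. The labels do not expand these abbreviations, which are kept as names. Each group had 2 libraries described as biological replicates, without saying whether they came from separate plants. The p-values given therefore rest on the spread between libraries only. In the tests, the spread of each gene was also drawn towards that of the other genes tested. Transgenes, and which of the 2 RNA extraction methods served which library, are not given per group. Bisulfite samples of these groups were left aside. Library totals were 41582054 to 52643973 counts for the 4 Seedling and Callus libraries and 26609812 to 33222427 for the other 14.

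Genes with a steady RNA level matter in plant work because relative measurements such as quantitative PCR are expressed against a reference transcript, which is assumed to be present at the same share of the RNA in every sample. Housekeeping genes for translation, the cytoskeleton and protein turnover are the traditional choice. RNA-seq also reads every gene as a share of the total, so a level can be called steady only relative to the way the libraries were scaled. The files give MSU-style locus identifiers without names. None of the 55986 identifiers matched a symbol, locus tag, synonym or Ensembl entry of the reference gene table, so no gene name, function, sequence or marker of leaf or other tissue can be attached. Genes are given by identifier, with the chromosome read from it, and none of the conventional reference genes could be looked up.

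The gene with the lowest spread was LOC_Os03g51250 on chromosome 3. In CPM, its level was 29.5 and 28.9 in Seedling, 30.2 and 26.4 in Callus, 27.2 and 31.4 in Callus+AM, 24.4 and 28.9 in Ag, 27.6 and 31.4 in AgTi, 29.4 and 27.5 in AgBi, 27 and 27.3 in AMT+Ab, 29 and 32.1 in AMT+Hb and 26 and 31 in PB. The lowest library was Ag replicate 1 and the highest was AMT+Hb replicate 2, 1.32-fold apart, and the libraries of every group fell within this narrow band. The mean was 28.6 ± 2.11 CPM (SD, n = 18), and the SD of log2 CPM was 0.107. The estimated group component of its variance was 0. The 9 group means differed (SD 0.0615 on the log2 scale) by less than the spread between the 2 libraries of a group (SD 0.123) would give by itself. In whole leaves, a change in the number of cells of a type and a change in RNA per cell cannot be told apart.

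LOC_Os07g30840 on chromosome 7 came next, at 26 ± 2.21 CPM (SD, n = 18) and an SD of 0.122 on the log2 scale. It ranged from 22.5 CPM in AMT+Ab replicate 2 to 30.1 CPM in Seedling replicate 2. Both of its extremes came from groups whose other library lay nearer the middle, at 23.8 CPM in AMT+Ab replicate 1 and 24.8 CPM in Seedling replicate 1.

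LOC_Os02g05700 on chromosome 2, the next in order, stood at 73.8 ± 6.27 CPM (SD, n = 18). In CPM, its level was 75 and 67.3 in Seedling, 70.1 and 61.4 in Callus, 73.6 and 72.1 in Callus+AM, 81.4 and 83.3 in Ag, 79.2 and 83.5 in AgTi, 77.3 and 78.1 in AgBi, 75.1 and 65 in AMT+Ab, 76.3 and 71.7 in AMT+Hb and 71 and 66.4 in PB. Here the libraries of a group kept together more than in the first gene. The 4 Ag and AgTi libraries were among the highest and Callus replicate 2 was the lowest, and the group component made up 54.9% of the variance.

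**Figure D1:**
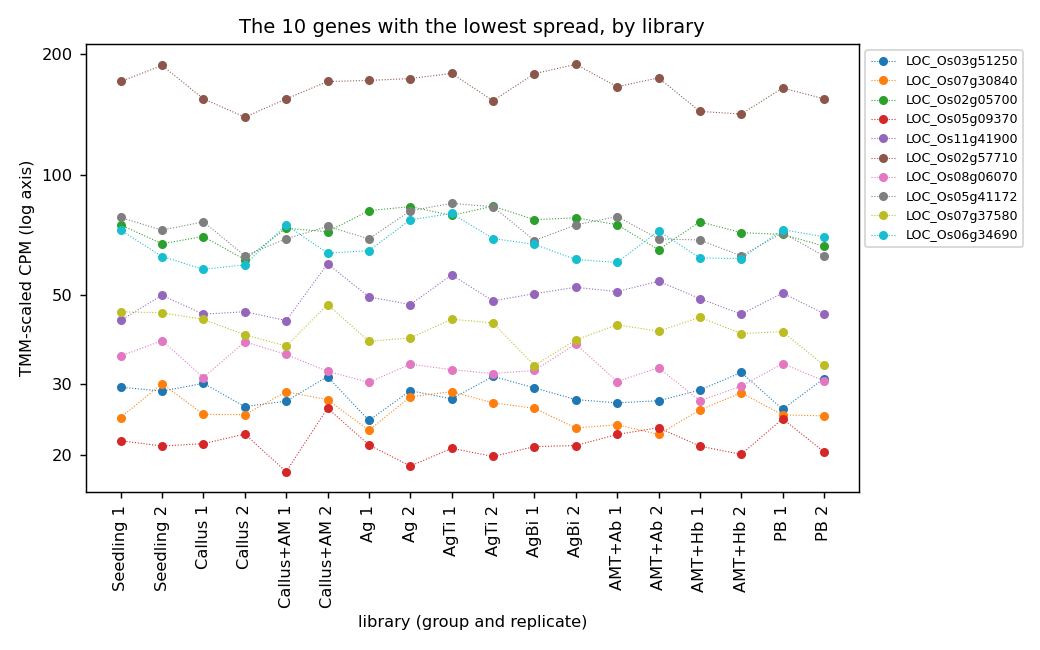
TMM-scaled CPM on a log axis of the 10 genes with the lowest SD of log2 CPM in each of the 18 libraries, with dotted lines only to guide the eye. Each gene stays within 1.32-fold to 1.44-fold between its lowest and highest library.

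The first 10 genes covered levels from 21.4 to 165 CPM and from 15.3 to 80.4 FPKM, the authors' length-scaled unit (fragments per kilobase and sequencing depth). LOC_Os02g57710 on chromosome 2 was the most abundant of them in CPM, and its level was 171 and 187.5 in Seedling, 155 and 139 in Callus, 155 and 171 in Callus+AM, 172 and 174 in Ag, 179 and 153 in AgTi, 179 and 189 in AgBi, 166 and 175 in AMT+Ab, 144 and 142 in AMT+Hb and 165 and 155 in PB. It was highest in AgBi replicate 2 and lowest in Callus replicate 2, and the AMT+Hb libraries were also low. The others among the first 10 were LOC_Os05g09370, LOC_Os11g41900, LOC_Os08g06070, LOC_Os05g41172, LOC_Os07g37580 and LOC_Os06g34690. LOC_Os05g09370 and LOC_Os11g41900 both had their lowest value in Callus+AM replicate 1 and their highest in Callus+AM replicate 2. For LOC_Os05g09370 these values were 18.2 and 26.2 CPM. For LOC_Os11g41900 they were 43.3 and 60.0 CPM. In both genes the 2 libraries of 1 group spanned the whole range over the 18 libraries.

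Over the 200 genes the SD of log2 CPM ran from 0.107 to 0.207 with a median of 0.187. The eligible genes had a median of 0.552 and reached 3.85. The median ratio between the highest and lowest library was 1.60-fold in the stable genes and 3.85-fold in the eligible genes. The highest ratio among the stable genes was 1.89-fold, in LOC_Os12g41210 on chromosome 12, where AgBi replicate 1 held 13.1 CPM and AMT+Ab replicate 1 held 24.8 CPM. For comparison, LOC_Os01g10280 on chromosome 1, the eligible gene at the median spread, ran from 14.5 CPM in AgBi replicate 2 to 42.9 CPM in Ag replicate 2. All 200 genes stayed under 2-fold, as did 822 of the 9304 eligible genes, or 8.83%. These figures describe the choice, since the spread is what chose the genes.

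The limit of the list fell in a dense region of the distribution. The last members were LOC_Os02g39890 at an SD of 0.20737, LOC_Os09g03610 at 0.20738 and LOC_Os02g07790 at 0.20739. The first genes outside were LOC_Os03g37010 at 0.20745, LOC_Os11g17530 at 0.20768 and LOC_Os08g34340 at 0.20775. The SD at the last member had a standard error of 0.00946, from leaving out each library in turn. These 6 genes lay closer together than that. It is the error of the limit, though, and the error of a difference between 2 genes was not estimated.

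**Figure D2:**
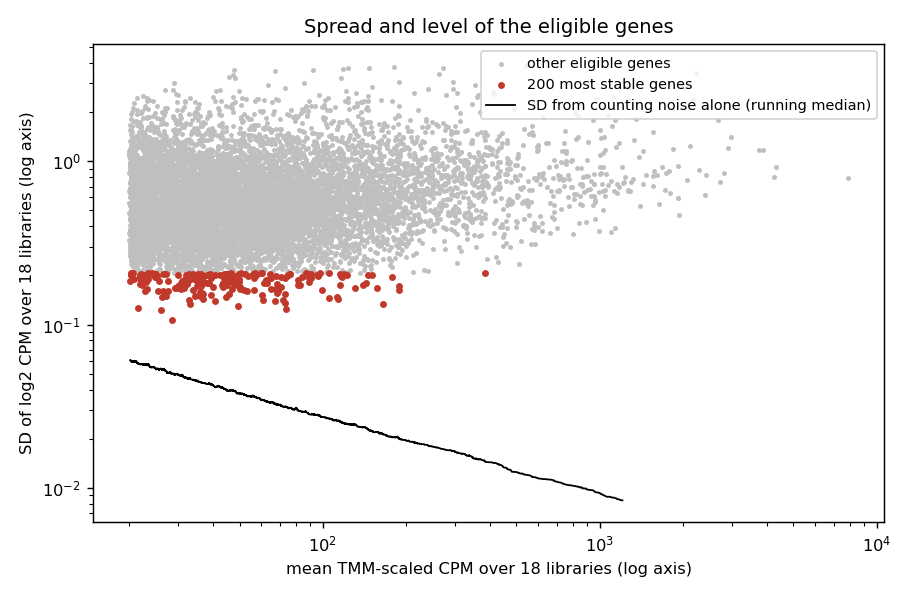
SD of log2 CPM over 18 libraries against mean TMM-scaled CPM, both on log axes, for the 200 stable genes (red), the other eligible genes (grey) and the SD that counting noise alone would give (line, running median). The stable genes reach an SD of 0.20739, lie above the counting line, and end at 386 CPM.

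The stable genes lay towards the lower of the levels that the rule allows, whose floor of 20 CPM the rule itself sets. Their median level was 44.1 CPM, against 50.2 CPM for the eligible genes. Of the 200, 123 had a mean of 20 to 50 CPM, 56 had 50 to 100 CPM, 20 had 100 to 200 CPM and 1 had more. These were 2.65%, 2.19% and 1.53% of the eligible genes at those levels. The gene with more was LOC_Os05g04630 on chromosome 5, at 386 ± 56.2 CPM (SD, n = 18), the only member among 498 eligible genes of 200 to 400 CPM. The libraries held, in CPM, 310.2 and 349.5 in Seedling, 375 and 369 in Callus, 391 and 413 in Callus+AM, 334 and 446 in Ag, 377.5 and 408 in AgTi, 399.7 and 521 in AgBi, 351 and 302 in AMT+Ab, 322 and 391 in AMT+Hb and 459.5 and 432 in PB. AgBi replicate 2 was highest and AMT+Ab replicate 2 lowest. None of the 303 eligible genes at 400 CPM or more was a member, and the lowest SD among them was 0.234. Other abundant members were LOC_Os01g48280 at 188 ± 22.3 CPM, LOC_Os08g22354 at 188 ± 21.0 CPM and LOC_Os05g46230 at 178 ± 25.1 CPM (SD, n = 18 each). At the lower end were LOC_Os08g25570 at 20.2 ± 2.68 CPM and LOC_Os01g31580 at 20.2 ± 2.90 CPM (SD, n = 18 each).

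Sampling of reads was a small part of this spread. The SD expected from counting alone had a median of 0.0383 in the stable genes and 0.0394 in the eligible genes. The observed SD was a median of 4.70 times the counting SD in the stable genes and 14.7 times in the eligible genes. It was lowest in LOC_Os03g51250 at 2.27 times, and 195 of the 200 genes (97.5%) stood above 3 times, as did 99.9% of the eligible genes. The lowest count of any stable gene in any library was 348, in LOC_Os01g31580.

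The spread of each gene was divided into a part within groups, between the 2 libraries of a group, and a part between the 9 group means. In the stable genes the within-group SD had a median of 0.148 on the log2 scale and the SD of the group means a median of 0.149. In the eligible genes these medians were 0.310 and 0.509. Group membership accounted for a median of 34.2% of the variance in the stable genes and 66.2% in the eligible genes. The group component was 0 in 33 stable genes, or 16.5%, and in 2.40% of the eligible genes, and it exceeded 50% in 53 stable genes, or 26.5%, and in 72.6% of the eligible genes. The spread of group means was thus lower by a larger factor than the spread within groups, and the rule, which took the genes by their overall spread, favours both.

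The members with the widest distance between groups were picked as the extremes of the 200, and their values are a description. LOC_Os08g45220 on chromosome 8 had the largest group share, 88.0%. In CPM, its level was 84.5 and 81.4 in Seedling, 80.0 and 73.1 in Callus, 107 and 103 in Callus+AM, 106 and 120.3 in Ag, 115 and 113 in AgTi, 83.3 and 89 in AgBi, 91.8 and 84.8 in AMT+Ab, 95.7 and 97.2 in AMT+Hb and 92.9 and 101 in PB. The Seedling and Callus libraries, at 73.1 to 84.5 CPM, did not overlap with those of Callus+AM, Ag and AgTi, at 103 to 120.3 CPM. This gene lay 1.65-fold between extremes, with an SD of 0.0718 between the 2 libraries of a group on the log2 scale. The edgeR test described below did not call LOC_Os08g45220 for any difference among the 9 groups (adjusted p = 0.11). Its results with DESeq2 and limma are not given here. The Seedling and Callus libraries were also the deeper ones, so group and depth cannot be told apart in this contrast.

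LOC_Os07g02350 on chromosome 7 had a group share of 82.5%. The CPM values were 82.2 and 77.2 in Seedling, 80.7 and 80.8 in Callus, 71.5 and 72.4 in Callus+AM, 56.8 and 67.2 in Ag, 76.2 and 75.5 in AgTi, 77.3 and 84.5 in AgBi, 65.8 and 59.7 in AMT+Ab, 61.1 and 62.3 in AMT+Hb and 61.7 and 55.5 in PB. Seedling, Callus, AgTi and AgBi were above 75 CPM in every library, and the AMT+Ab, AMT+Hb and PB libraries were all below 66 CPM.

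The widest distance between group means, 0.713 on the log2 scale, belonged to LOC_Os01g01720 on chromosome 1. In CPM, its level was 79.3 and 74 in Seedling, 54.4 and 59.2 in Callus, 51.7 and 56.1 in Callus+AM, 56.8 and 60.1 in Ag, 58.2 and 59.8 in AgTi, 63.1 and 72 in AgBi, 43.3 and 50.4 in AMT+Ab, 56.7 and 57.4 in AMT+Hb and 65.1 and 56.9 in PB. The Seedling libraries were above all 16 others, AgBi replicate 2 was next, and AMT+Ab held the lowest mean. LOC_Os02g07790 on chromosome 2, the last member, was 0.685 apart between its highest group, AgTi, and its lowest, PB. The PB libraries held 77.8 and 73.3 CPM and all 16 others 94.1 to 131.6 CPM. LOC_Os06g42490 on chromosome 6 was 0.643 apart, with 34.7 to 35.0 CPM in AMT+Hb and 50.1 to 59.1 CPM in AgBi. The remaining wide genes by this measure were LOC_Os08g44820, at 0.645, and LOC_Os01g51220, at 0.625. For any difference among the 9 groups, the edgeR adjusted p was 0.0416 for LOC_Os01g01720, 0.0469 for LOC_Os07g02350 and 0.0468 for LOC_Os08g44820, the members called. It was 0.103 for LOC_Os02g07790, 0.125 for LOC_Os06g42490 and 0.227 for LOC_Os01g51220, which did not pass. With libraries scaled as for the CPM printed here, the edgeR adjusted p was 0.068 for LOC_Os01g01720, 0.0812 for LOC_Os07g02350 and 0.0759 for LOC_Os08g44820. None of these genes was then called. The rule used the same libraries, so these p-values only describe the members.

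Tests between groups were run across 26374 genes with the quasi-likelihood test of edgeR and Benjamini-Hochberg adjustment. The tests scale libraries by TMM over these genes, not over the genes that set the CPM above. Their log2 fold changes differ by a median of -0.078 for the 8 regenerated groups together against Seedling, and by -0.028 for Callus against Seedling, from those with the scaling of the CPM. The rule used the same libraries, so the counts of stable genes called are printed beside the share of all genes called and nothing is read from them. For any difference among the 9 groups, 3 of the 200 were called at adjusted p below 0.05, against 63% of all genes. With the scaling of the CPM it was 0, against 63.3% of all genes. Within the 7 groups other than Seedling and Callus, whose libraries were all of the shallower kind, 0 were called, against 41.8% of all genes, with 1 stable gene at an unadjusted p below 0.05 (54% of all genes) and 15 called by DESeq2 (54.5% of all genes). In the 8 regenerated groups together against Seedling, 14 were called, against 37.6% of all genes. All 14 were lower than in Seedling, where 20.5% of all genes were called lower and 17.1% higher. With the scaling of the CPM, 5 of the 14 were called and all 5 were lower, against 18.4% of all genes lower and 18.8% higher, so the count of 14 depends on the scaling. In Callus against Seedling, within the deeper set, 3 were called and all 3 were lower, against 19.4% of all genes in either direction, 10.1% lower and 9.3% higher. With the scaling of the CPM it was 2, both lower, against 19.5% of all genes.

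The rule used these same libraries, so the fold changes and p-values of single members are given as a description only. The largest called difference of a stable gene in the 8 regenerated groups against Seedling was that of LOC_Os08g44820 on chromosome 8. The CPM values were 194 and 214 in Seedling, 133 and 138 in Callus, 140.2 and 128 in Callus+AM, 162.5 and 173.5 in Ag, 156 and 141 in AgTi, 143.5 and 144 in AgBi, 137 and 153 in AMT+Ab, 128 and 133 in AMT+Hb and 146 and 147 in PB. The Seedling libraries lay above all 16 regenerated libraries, and Ag was the next highest group. The log2 fold change of the 8 groups against Seedling was -0.59 (SE 0.128, edgeR adjusted p = 0.00367), and -0.51 (SE 0.126, edgeR adjusted p = 0.0079) with the scaling of the CPM. In Callus against Seedling it was -0.62 (SE 0.181, edgeR adjusted p = 0.0305). The second largest was LOC_Os03g54920 on chromosome 3, with 69.2 and 78.7 CPM in Seedling and 45.6 to 68.7 CPM in the 16 others (log2 fold change -0.52, SE 0.139, edgeR adjusted p = 0.012). In Callus against Seedling LOC_Os03g54920 had the largest, at -0.64 (SE 0.196, edgeR adjusted p = 0.0386). Over all 200 genes the median log2 fold change of the 8 groups against Seedling was -0.12, against 0.07 over all genes tested. With the scaling of the CPM these medians were -0.040 and 0.145. Without Seedling replicate 1 the count of 14 was 1, against 19.8% of all genes, and without replicate 2 it was 2, against 16.8%. Without any 1 of the 16 other libraries it was 7 to 19. The count of 3 in Callus against Seedling was 0 without any 1 of the 4 libraries compared, against 7.19% to 10.1% of all genes.

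**Figure D3:**
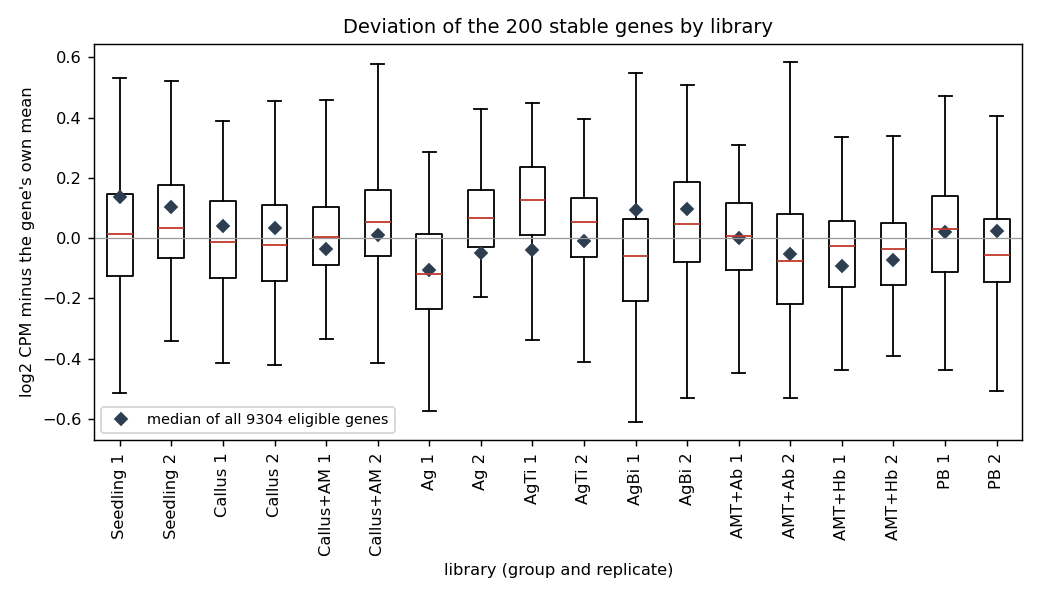
Difference of log2 CPM from each gene's own mean for the 200 stable genes in each of the 18 libraries (boxes from the lower to the upper quartile, red line the median, whiskers to the lowest and highest gene), with the median of all 9304 eligible genes as a diamond. AgTi replicate 1 is shifted up by 0.126 and Ag replicate 1 down by 0.118.

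The stable genes moved together slightly in some libraries. Their median deviation was highest in AgTi replicate 1, at 0.126 on the log2 scale (1.09-fold), and lowest in Ag replicate 1, at -0.12 (0.921-fold). All other libraries lay between -0.077 and 0.067. The eligible genes had their highest median deviations in Seedling, at 0.136 and 0.103, where the stable genes had 0.015 and 0.034. In AgBi replicate 1 the median was -0.058 for the stable genes and 0.093 for the eligible genes. The highest value of a stable gene fell in AgTi replicate 1 for 32 of the 200 genes and in Seedling replicate 2 for 28. Among the eligible genes AgTi replicate 1 was the highest library for 4.48% and Seedling replicate 2 for 14.9%. The lowest value fell in AgBi replicate 1 for 31 stable genes, in Ag replicate 1 for 29 and in AMT+Ab replicate 2 for 26. These were the lowest libraries of 5.06%, 9.43% and 9.94% of the eligible genes. Ag replicate 2 and AgTi replicate 1 were the lowest library for 0 of the 200.

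By group, AgTi held the highest mean of 48 stable genes, Seedling of 35 and Callus of 26. AMT+Ab held the lowest mean of 37, Callus of 35 and PB of 30. Among the eligible genes AgTi held the highest mean of 7.68%, Seedling of 25.7% and Callus of 9.17%. The lowest mean was in AMT+Ab for 13.4% of them, in Callus for 9.23% and in PB for 17.4%. The 2 libraries of a group were closest in Callus, with a median absolute difference of 0.0974 on the log2 scale over the stable genes, and farthest apart in AgBi, at 0.213, and Ag, at 0.200. The eligible genes had 0.169, 0.462 and 0.429 in these groups. The first principal component over libraries, with genes scaled to equal variance, held 17.5% of the variance of the stable genes and 29.1% of that of the eligible genes.

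Steadiness was next read in libraries whose spread had no part in the choice. When the 200 genes were picked in the 9 replicate 1 libraries alone, their median SD in the 9 replicate 2 libraries was 0.229, against 0.556 for all 9304 eligible genes. All 200 lay below the median of the eligible genes there and 194 below the lower quartile of 0.390. Of these genes, 66 were also among the 200 lowest of the replicate 2 libraries, where 200 genes are 2.15% of those eligible. In the other direction, 198 of the 200 genes picked in the replicate 2 libraries were eligible in all libraries, and their median SD in the replicate 1 libraries was 0.227, against 0.567. Of these, 195 lay below the lower quartile and 66 were among the 200 lowest. One gene picked in replicate 2 reached an SD of 1.81 in replicate 1. Both replicate sets hold the same 9 groups, and the scaling factors came from all 18 libraries, so the sets share no library but share groups and scaling. The SDs were also read only for genes eligible over all 18 libraries, so the limits on counts and level used the libraries read.

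**Figure D4:**
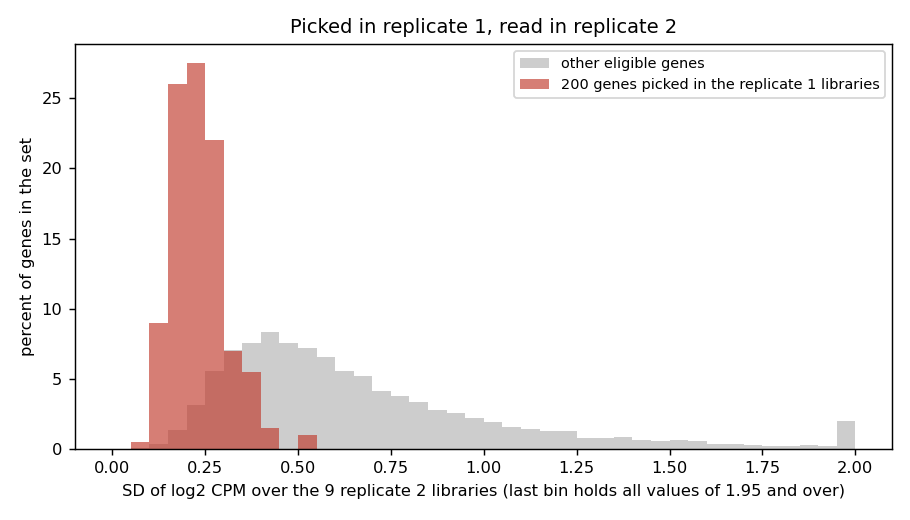
Percent of genes by SD of log2 CPM over the 9 replicate 2 libraries, for the 200 genes picked in the replicate 1 libraries (red) and the other eligible genes (grey), in bins of 0.05. The picked genes have a median of 0.229 and a highest value of 0.509.

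The choice was also read in groups whose spread it had not used, with the SDs again given for genes eligible in all libraries. In the 14 libraries of the 7 groups other than Seedling and Callus, 200 genes were picked, of which 195 were eligible in all libraries and 103 were among the 200 stable genes. Their median SD over the 4 Seedling and Callus libraries was 0.193, against 0.395 for the eligible genes, and 112 of the 195 lay below the lower quartile of 0.221 and 13 were among the 200 lowest. In the other direction, 198 genes picked in the 4 Seedling and Callus libraries had a median SD of 0.338 in the 14 others, against 0.512 for the eligible genes, with 108 below the lower quartile of 0.360 and 11 among the 200 lowest. The 200 genes picked in the 14 libraries were also tested in Callus against Seedling. Of them, 29 (14.5%) were called by edgeR at adjusted p below 0.05, 6 higher and 23 lower. All eligible genes gave 24.7% in the same test, 8.24% higher and 16.5% lower, and all genes tested 19.4%. Fitted to these 4 libraries alone, the test called 25 of the 200 (12.5%), 6 higher and 19 lower, against 31.5% of the eligible genes and 25.2% of all genes tested (11.4% higher and 13.9% lower). The fit of all 18 libraries takes its spread also from the 14 that chose the genes. In that fit the median absolute log2 fold change of the picked genes was 0.244 and the highest 1.40, against a median of 0.518 in the eligible genes. 

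Counts alone, without scaling between libraries, gave a different list. TMM factors ranged from 0.734 in Seedling replicate 1 to 1.25 in Callus+AM replicate 1. The 200 genes were chosen to be level after this scaling. Without it, their deviations and their shares of the counts largely repeat the factors, so they only describe the scaling. In CPM of library totals the 200 genes as a set were low in Seedling, with median deviations of -0.43 and -0.38 on the log2 scale. They were also low in AMT+Ab replicate 2 at -0.39 and in AgBi replicate 1 at -0.26. They were high in Ag replicate 2 at 0.372 and in the AgTi libraries at 0.380 and 0.334. The 200 genes together took 0.831% and 0.861% of the counts in Seedling, 0.859% in AMT+Ab replicate 2, and 1.44% and 1.39% in AgTi. The 100 most abundant genes of a library took 22.2% and 21.1% of its counts in Seedling, 14.2% and 13.4% in AgTi, 12.2% in Callus+AM replicate 1 and 24.5% in AMT+Ab replicate 2. Their part in the shift was not tested.

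Under library totals the median SD of the 200 genes was 0.305 and that of the eligible genes 0.583, and 42 of the 200 stayed among the 200 lowest. LOC_Os03g51250, first under TMM, was at rank 240 with an SD of 0.270. LOC_Os02g57710 was at rank 45 with an SD of 0.207. With relative log expression factors 179 of the 200 were shared, and LOC_Os03g51250 and LOC_Os07g30840 were again first and second. With upper-quartile factors 130 were shared, and LOC_Os02g57710 was first.

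**Figure D5:**
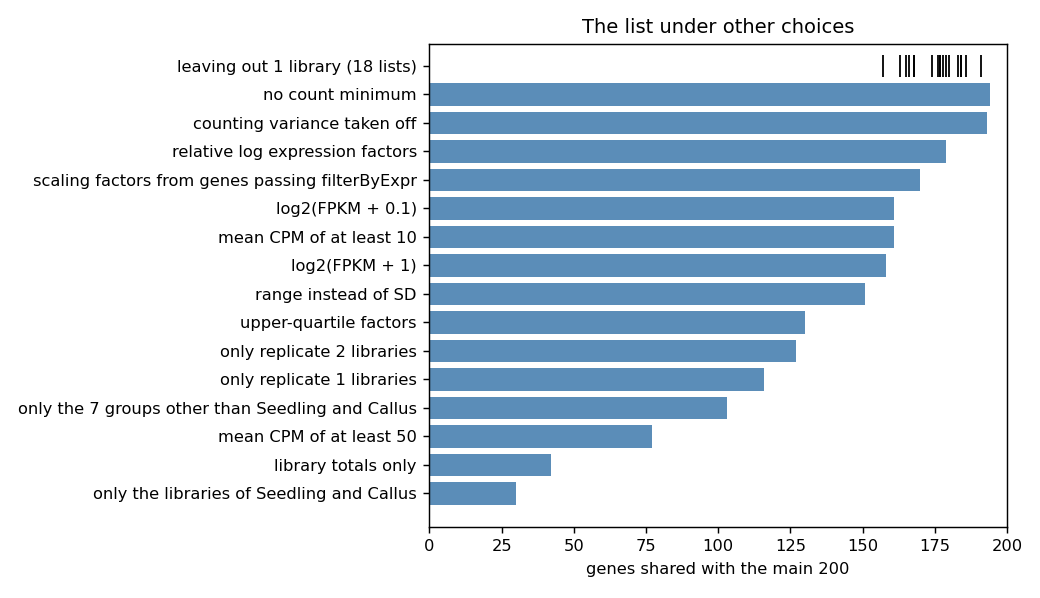
Number of the 200 stable genes that the rule takes again when 1 choice is altered (bars), and when 1 of the 18 libraries is left out (ticks, 1 per list). The number runs from 30 with the 4 Seedling and Callus libraries alone to 194 without a count minimum, and from 157 to 191 over the lists without 1 library.

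Individual members differed in how well they kept their place. Of the 200, 128 were taken again in all 18 lists that left out 1 library, 65 in the lists of both replicate sets, and 35 under all 3 other scalings. All of the first 10 were in every list without 1 library and in both replicate lists, where their ranks ran from 1 to 74 in replicate 1 and from 7 to 82 in replicate 2. Under the 13 alternatives fixed for the rule, which include both replicate lists and a higher level limit, 7 genes were taken each time. These were LOC_Os02g57710, LOC_Os03g55600, LOC_Os09g39462, LOC_Os01g42430, LOC_Os05g43360, LOC_Os01g48280 and LOC_Os02g51500. They were singled out after their values were seen. 

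Properties the rule had not used were compared by counts. The stable genes came from all 12 chromosomes, from 30 on chromosome 1 to 6 on chromosome 12. The share of eligible genes taken was between 1.44% on chromosome 12 and 2.65% on chromosome 10. Chromosome 3, with the most eligible genes (1417), gave 28.

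In 3 cases both members of a pair of consecutively listed identifiers were stable. These were LOC_Os01g37760 with LOC_Os01g37770, LOC_Os01g40610 with LOC_Os01g40620, and LOC_Os04g56440 with LOC_Os04g56450. In the first pair the mean levels were 36.2 ± 5.11 and 45.9 ± 5.91 CPM (SD, n = 18 each), the lower one highest in Callus and the other highest in Seedling by group mean. In the second pair the levels were 24.7 ± 3.07 and 22.8 ± 2.36 CPM (SD, n = 18 each). Both of these genes were highest in AgTi by group mean, but AgTi was the most common highest group, for 48 stable genes. In the third pair PB replicate 1 was the highest library of both genes, at 40.2 and 88.0 CPM. Over the 18 libraries the Pearson correlation between the genes of a pair was -0.0957 in the first pair, 0.487 in the second and 0.201 in the third. Over 19900 pairs of stable genes its lower and upper quartiles were -0.125 and 0.32. Only the second pair lay above these quartiles. Reads shared between overlapping or near-identical genes cannot be told apart in these tables. Consecutively listed pairs among all eligible genes were not counted, so the count of 3 pairs has no background beside it.

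Relative length was taken from the ratio of deposited counts to FPKM, set to 1 at the median eligible gene. The stable genes had a median of 0.961, with 4 genes (2%) longer than 2 and 6 (3%) shorter than 0.5. Among the eligible genes 8.57% were longer than 2 and 12% shorter than 0.5. The longest were LOC_Os02g49090 at 2.57, LOC_Os03g23935 at 2.45 and LOC_Os04g57640 at 2.25. The shortest were LOC_Os05g01262 at 0.433, LOC_Os01g51220 at 0.437 and LOC_Os04g32270 at 0.468. This ratio was constant over libraries, within 1%, in 137 of the 200 genes (68.5%) and in 74.0% of the eligible genes. It varied by more than 1.2-fold in 8 stable genes (4%) and in 3.24% of the eligible genes. Among the 8 were LOC_Os07g22640 at 1.41-fold and LOC_Os03g53700 at 1.33-fold. For such genes the counts and the FPKM of the authors do not give the same profile over libraries.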

How the data were processed

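RNA-seq of rice leaves from 9 groups of 2 replicates was used. Of the estimated counts in the table that the authors deposited, 0.707% were not whole. FPKM came in another deposited table of these libraries. Per the submitters' processing notes, the tools were Cuffdiff, Cuffnorm and TopHat. The sources used here give no version, setting, genome build or strandedness.

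The genes, lists and tests were chosen with earlier results of these data known. Stable genes were taken by SD of log2 of TMM-scaled CPM, with no prior count and factors from the genes whose count reached 10 throughout. Group tests used edgeR 4.0.16 in R 4.3.3 on rounded counts of 26374 genes passing filterByExpr, with 1 coefficient per group, robust estimation, 9 residual degrees of freedom and calls at adjusted p below 0.05. Each standard error was the absolute log2 fold change over the square root of F. Variance was divided by a balanced 1-way layout, with negative group components set to 0. Counting SD is the Poisson value. Totals of 26609812 to 52643973 counts limit counting precision, and other error is larger: the 2 libraries of each group differed by 108 to 604 times counting variance, so none was counted as a duplicate. Alternatives were other scalings, filters, measures, the FPKM table, limma 3.58.1, DESeq2 1.42.0, a replicate block and subsets of libraries. The tests and the rule were tried on simulated data.

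Members named are the 10 with the lowest SD and the extremes of level, group range, group share, length, limit and neighbourhood. At most 2 called genes per direction are named as such. The lists by gene name and the tissue markers could not be matched to identifiers and were not run.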

Additional observations from a re-analysis of the deposited data

How the results depend on the processing

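The number of stable genes shared with the list above was 130 with upper-quartile factors, 42 with library totals only, 77 with a mean CPM of at least 50 (all the members at that level), 103 in the 7 groups other than Seedling and Callus, 116 in replicate 1, 127 in replicate 2, and 157 to 191 without 1 library. The SD at the last member, 0.207, was 0.261 with library totals, 0.219 with log2(FPKM + 0.1), 0.251 with at least 50 CPM, 0.187 in the 7 groups, 0.193 in replicate 2, and 0.203 to 0.211 without 1 library. The median SD, 0.187, was 0.231 with library totals, 0.215 with at least 50 CPM, 0.164 in the 7 groups, 0.175 in replicate 1, 0.170 in replicate 2, and 0.181 to 0.190 without 1 library. The largest median deviation of a library, 0.126, was 0.207 with library totals, 0.175 with log2(FPKM + 0.1), 0.0794 in the 7 groups, 0.0945 in replicate 1, 0.0583 in replicate 2, and 0.110 to 0.134 without 1 library. The median relative length, 0.961, was 0.871 with library totals, 1.05 with at least 50 CPM, and 0.932 to 1.01 without 1 library. The median group share, 34.2%, was 26.8% to 40.6% without 1 library and could not be computed within 1 replicate set. Chosen after seeing the data, factors from genes passing filterByExpr gave a largest deviation of 0.157. Also chosen then, the 4 Seedling and Callus libraries alone gave 30 shared genes, SDs of 0.0753 and 0.0550, a group share of 0%, a deviation of 0.00988 and a length of 1.07. The count of 77 follows from the limit itself, the subsets hold fewer libraries, and the cause of the other shifts was not tested.

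Of the stable genes called among the 9 groups, 3 became 0 with no filter on low counts (35.8% of all genes called), 31 with DESeq2 (67.8%), 0 with the replicate block (56.5%), 0 to 4 without 1 library (47.5% to 64.5%) and, added after seeing the data, 0 with the scaling of the rule (63.3%). Within the 7 groups, 0 became 15 with DESeq2 (54.5%), and 0 or 1 without 1 library (26.3% to 45.7%), 1 being without AgBi replicate 1. Against Seedling, 14 became 1 with no filter (20.5%), 9 with the replicate block (35%), 5 with the scaling of the rule (37.2%) and 1 to 19 without 1 library (16.8% to 38.2%). That count was 1 and 2 without Seedling replicate 1 and 2, 7 without AgTi replicate 2 or AMT+Ab replicate 2, 8 without Callus replicate 1 or AMT+Hb replicate 1, and 9 without PB replicate 1 or 2. Where a group was left with 1 library, it was taken to vary like the others. With DESeq2 on all 18 libraries, 21 stable genes were called against Seedling, all lower (39.4% of all genes called). In Callus against Seedling, 3 became 0 with no filter (9.79%), 9 with DESeq2 (24%), 1 with the replicate block (17.2%) and 0 to 3 without 1 library (7.19% to 20.3%). It was 0 without either Seedling, Callus or PB library and 1 without either AgTi or AMT+Hb library. The count among the 9 groups was 1 without Callus+AM replicate 2 and 0 without either library of Seedling, Callus, AgTi, AMT+Ab, AMT+Hb or PB. Differences between replicates 1 and 2 correlated between groups at -0.54 to 0.324 over 36 pairs of groups, with a median of -0.0305 and above 0.1 in 8. Whether replicate numbers mark a pairing or a batch in some groups cannot be told from these correlations. The SD of single genes named stayed within their own replicate spread in 1244 of 1259 values, and 14 of the 15 others came from library totals only. With 2 libraries a group, calls of small differences depended on the test: among the 9 groups, edgeR called 3 stable genes and DESeq2 31. Such differences remain poorly resolved.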
